A study of Mus musculus with 20 samples.

Results

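Major histocompatibility complex (MHC) class II genes were followed over 20 mouse Clariom S microarrays in 10 groups of 2 arrays. The set listed 7 genes: H2-Aa, H2-Ab1, H2-Eb1, H2-DMa, H2-DMb1, Cd74 and Ciita. A gene was taken where a probe set of the array annotation carried exactly 1 symbol and that symbol was the gene's, and 6 of the 7 had such a probe set, 1 each, among 19572 named probe sets of 19505 genes. Cd74 was not analysed here.

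The study measured RNA from red cell precursors in a culture experiment and in a mouse model. For the culture, marrow cells depleted of mature lineages came from female wild-type C57BL/6 mice, 2 in all per the series, and grew in medium with erythropoietin. Interleukin 6 (IL-6) at 100 ng/mL was present from the start in the D1-IL6 and D2-IL6 groups and absent in D1-Control and D2-Control. The labels do not define D1 and D2 further. The in vivo arrays held erythroblasts of C57BL/6 mice aged 1 year. DWT mice were double wild type, and DKO mice were double knockouts of mDia1, the formin encoded by Diaph1, and of the microRNA miR-146a, so no group lacked only 1 of these genes. Each genotype had 2 mice, and each gave proerythroblasts (stage I), basophilic with polychromatic cells (stage II+III) and orthochromatic cells (stage IV). The DWT arrays came from a male (replicate 1) and a female (replicate 2), and every DKO array came from a female. Which DKO arrays of different stages share a mouse is not labelled. Sex therefore differs in part between the genotypes, and its part in their difference was not tested. The replicate numbers follow deposit order and only name the arrays.

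MHC class II molecules present peptides from the endosomal pathway to CD4+ T cells, and are best known from dendritic cells, B cells and macrophages. H2-Aa and H2-Ab1 encode the alpha and beta chains of the I-A molecule. H2-Eb1 encodes the beta chain of I-E, whose alpha-chain gene is defective in C57BL/6 mice. H2-DMa and H2-DMb1 encode the chains of H2-M, which exchanges the invariant-chain peptide for antigenic peptides. Ciita encodes the transactivator that docks on factors bound at the X and Y boxes of class II promoters. Erythroblasts are not classical antigen-presenting cells.

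Because these promoters share a known arrangement, the 250 bases before the start were searched in the RefSeq promoter table (build GRCm38.p6), which matched 4 of the 7 genes: H2-Aa, H2-DMb1, H2-Eb1 and H2-DMa. The Y box was searched as TGATTGG, the site of the factor NF-Y, and the X2 core as TGATG or TGACG beginning 18 to 26 bases before the Y box on the same strand. Both strands were searched, and this definition was set after the sequences had been seen. The 3 promoters with both elements are shown 5′ to 3′ as 120 bases upstream of the start, with the X2 core and then the Y box in capitals. The window of H2-Aa is chr17:34287824-34287943 on the minus strand, that of H2-DMb1 is chr17:34153060-34153179 on the plus strand, and that of H2-Eb1 is chr17:34305738-34305857 on the plus strand.
H2-Aa: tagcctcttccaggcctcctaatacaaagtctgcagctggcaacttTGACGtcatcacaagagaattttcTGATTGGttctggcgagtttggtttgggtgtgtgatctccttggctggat
H2-DMb1: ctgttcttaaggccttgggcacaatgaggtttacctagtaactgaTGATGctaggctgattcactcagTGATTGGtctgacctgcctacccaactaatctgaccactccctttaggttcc
H2-Eb1: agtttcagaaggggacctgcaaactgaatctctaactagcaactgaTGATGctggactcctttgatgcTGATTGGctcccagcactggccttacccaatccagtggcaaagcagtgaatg

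The first bases of the elements lay 24 bases apart in H2-Aa, 23 in H2-DMb1 and 22 in H2-Eb1. The Y box began at position -50, -63 and -61 from the start, respectively. Of 32851 promoters of the same length, 2375 (7.23%) held the Y box letters on either strand and 54 (0.164%) held the full arrangement. Neither of the 2 H2-DMa starts in the table had the Y box letters in its window, and 1 of them had the core ATTGG, which 33.8% of promoters hold. Among the neighbouring class II genes, H2-DMb2, H2-Eb2 and H2-Ob also held the arrangement, and H2-Oa held the Y box letters without the X2 core. A match describes letters only. The genes that share it did not share a level: H2-Eb2 lay near background in all 20 arrays.

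Values are log2 signals on the robust multi-array average scale, on which a difference of 1 is a doubling. A signal was called near background where it lay under the 95th percentile of the 23 background probe sets of its array, a level of 7.25 to 7.74. Between 34.9% and 43.0% of named probe sets exceeded it. The 2 DKO-I arrays, of which replicate 2 stood apart, correlated across genes at r = 0.902, against 0.97 or more within each other group. Diaph1, which checks the knockout, lay near background in all 6 DKO arrays, from 6.87 to 7.59, against 9.29 to 11.49 in the DWT arrays. All 10 measured erythroid markers exceeded background in 18 of the 20 arrays. In the DKO-I arrays 8 and 7 of the 10 did so. This cannot settle the cell type, since markers of other cells were bright too. At stage I all 11 neutrophil markers exceeded background, with means of 16.16 and 16.37 in DWT-I and 16.95 and 15.38 in DKO-I. The erythroid means there were 13.08 and 12.92 in DWT-I and 9.91 and 9.42 in DKO-I. With 2 arrays a group, p-values measure only the spread between these arrays, and their number limits the precision.

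H2-Aa and H2-Eb1 exceeded background in all 20 arrays, H2-Ab1 and H2-DMb1 in 19 and H2-DMa in 18. Over the arrays H2-DMa ranged from 5.67 to 13.58, H2-DMb1 from 6.53 to 14.14, H2-Ab1 from 6.47 to 14.34, H2-Eb1 from 8.43 to 15.11 and H2-Aa from 8.46 to 13.56. Ciita stayed between 6.69 and 7.95 and exceeded background in 3 arrays: DWT-IV replicate 1 at 7.49, DKO-I replicate 1 at 7.95 and DKO-II+III replicate 1 at 7.47. The transactivator was near the detection limit in arrays where its known target genes were bright.

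In control cultures, 5 of the 6 measured class II genes fell between D1 and D2. H2-DMa, a chain of the peptide exchanger, read 10.86 and 11.19 in D1-Control and 7.40 and 5.67 in D2-Control. Its partner H2-DMb1 read 10.87 and 11.15, then 7.61 and 6.53. H2-Ab1 read 10.60 and 11.68, then 7.55 and 6.47. For these 3 genes D2-Control replicate 2 lay near background, so their lower level is less certain than the others'. H2-Eb1 read 11.23 and 12.12, then 8.43 and 8.96, and H2-Aa read 10.93 and 11.49, then 8.89 and 8.46. No array of D2-Control reached any array of D1-Control for these 5 genes.

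The fall at D2 was 4.49 ± 0.52 (SE, n = 2 per group) for H2-DMa, with log2 fold changes of -4.14 ± 0.42 for H2-Ab1, -3.94 ± 0.36 for H2-DMb1, -2.98 ± 0.33 for H2-Eb1 and -2.54 ± 0.29 for H2-Aa. The adjusted p-values (limma, Benjamini-Hochberg over all named probe sets) lay between 9.51e-06 for H2-DMb1 and 5.92e-05 for H2-DMa. This step changed much of the array: 43.2% of probe sets passed, 23.5% of all being lower at D2. The median change was -3.46 over the 6 class II genes and 0.16 over all 19505 named genes, with 1 probe set for each gene. Ciita read 6.82 and 6.97 in D1-Control and 7.27 and 7.25 in D2-Control, a difference of 0.37 with an adjusted p of 0.272 in limma.

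Other genes of the class II route moved in both directions over the same step. Of 14 other chains, proteases and costimulatory genes, 5 fell and 2 rose, where 43.2% of all probe sets passed in either direction. Ctss, the cathepsin that trims the invariant chain, fell by 3.23, and the thiol reductase gene Ifi30 fell by 2.77. H2-DMb2, a second H2-M beta chain, fell by 2.11. Lgmn, an asparaginyl endopeptidase of the lysosome, rose by 3.99. Of 12 class I presentation genes 7 fell and 2 rose, and of 15 regulators of class II transcription 6 fell and 2 rose. The counts of the 14 pathway genes and of the 15 regulators are near the share over all probe sets.

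With IL-6 the same 5 genes were higher at D2 than in the control culture. H2-DMb1 read 10.64 and 11.12 in D2-IL6, against 7.61 and 6.53 in D2-Control. H2-DMa read 8.84 and 9.92 against 7.40 and 5.67, and H2-Ab1 read 9.61 and 9.67 against 7.55 and 6.47. Each of the IL-6 arrays lay above both control arrays for these genes. The chain genes H2-Eb1, at 10.43 and 10.22 against 8.43 and 8.96, and H2-Aa, at 10.05 and 9.97 against 8.89 and 8.46, were likewise separate.

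**Figure D1:**
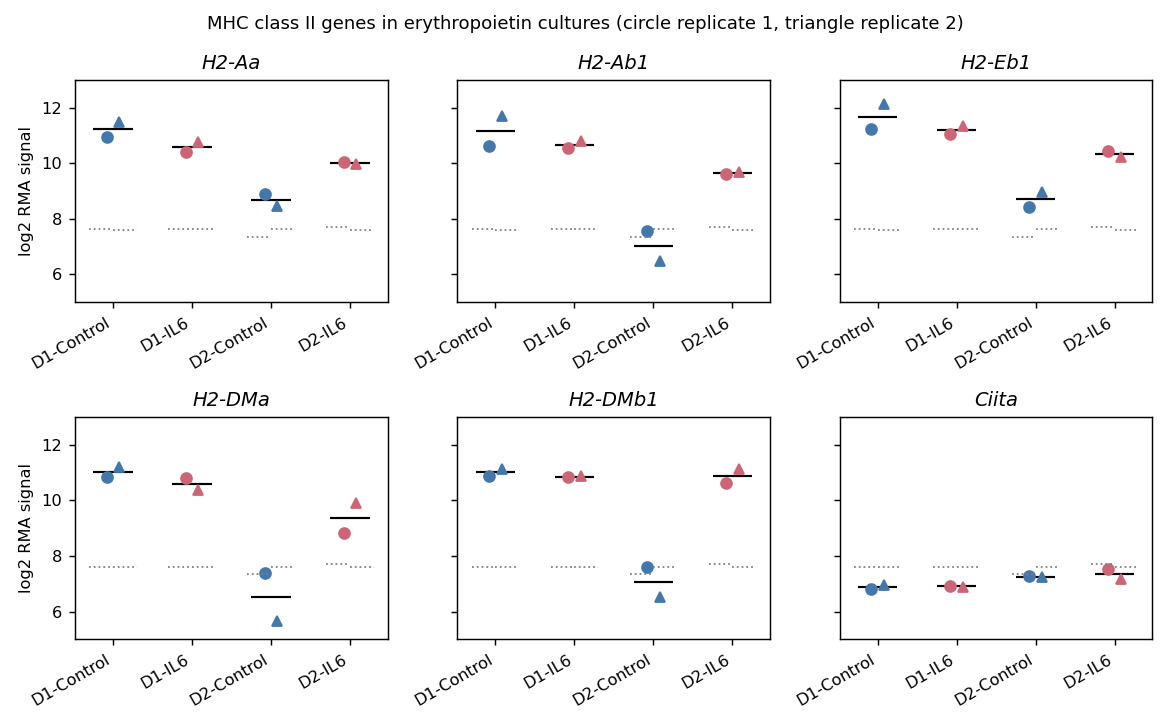
Log2 signal of the 6 measured class II genes in the 8 cultured arrays. Circles are replicate 1, triangles replicate 2, short black bars group means and dotted lines the background level of each array. The D2-Control arrays are the lowest for every gene except Ciita, which stays near the dotted lines in all groups.

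The IL-6 difference at D2 was 3.81 ± 0.36 for H2-DMb1 (adjusted p = 9.82e-05 in limma), 2.85 ± 0.52 for H2-DMa (0.0123), 2.64 ± 0.42 for H2-Ab1 (0.0046), 1.63 ± 0.33 for H2-Eb1 (0.0205) and 1.34 ± 0.29 for H2-Aa (0.0321). Thus 5 of 6 passed, all higher, where 3.31% of all probe sets passed and 2.92% were higher. The median was 2.13 over the class II genes and -0.07 over all named genes. Ciita differed by 0.10 ± 0.26 (adjusted p = 0.907 in limma), with a 95% interval from -0.48 to 0.68. This comparison and the control time step share the D2-Control arrays. H2-DMb1 and H2-Ab1 passed whichever of the 4 arrays was left out. The other calls were less firm: H2-DMa was lost without D2-Control replicate 2 or D2-IL6 replicate 2, H2-Eb1 without D2-Control replicate 1 or either D2-IL6 array, and H2-Aa without D2-Control replicate 2 or either D2-IL6 array. A single fit of all 20 arrays, whose shared spread includes the in vivo groups, gave 0 passing genes, with adjusted p-values from 0.20 to 0.565 for these 5 genes.

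At D1 no class II gene passed with IL-6, and 5 of the 6 were lower, with a median log2 difference of -0.46. H2-Aa, the gene nearest to one, read 10.41 and 10.76 with IL-6 and 10.93 and 11.49 without, a log2 difference of -0.63 ± 0.29. H2-DMa read 10.80 and 10.37 and H2-DMb1 10.83 and 10.87 with IL-6, and for these 3 genes no IL-6 array exceeded its controls. H2-Ab1, at 10.53 and 10.79, and H2-Eb1, at 11.06 and 11.32, overlapped their control arrays. In limma 0 of 6 genes passed and 0 had an unadjusted p under 0.05, and 0.0511% of all probe sets passed. The 95% intervals of the difference were -1.27 to 0.02 for H2-Aa, -1.60 to 0.73 for H2-DMa, -0.95 to 0.63 for H2-DMb1, -1.41 to 0.44 for H2-Ab1 -1.21 to 0.24 for H2-Eb1 and -0.55 to 0.61 for Ciita.

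The IL-6 difference was larger at D2 than at D1 for H2-DMb1, by 3.98 ± 0.50 (adjusted p = 0.0025 in limma), and for H2-Ab1, by 3.12 ± 0.59 (0.0307). These 2 of 6 genes passed the test of the difference itself, as did 1.19% of all probe sets, 1.17% being higher. H2-DMa differed by 3.28 (0.0832), H2-Eb1 by 2.12 (0.0679) and H2-Aa by 1.96 (0.0537). These 3 did not pass. At an unadjusted p under 0.05 there were 5 of the 6 genes and 8.01% of all probe sets. Ciita differed by 0.08. The H2-Ab1 call was lost without D1-Control replicate 2, D2-Control replicate 2 or any of the 4 IL-6 arrays, and the H2-DMb1 call was kept without each array in turn.

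Within the IL-6 cultures, H2-DMb1 lay close at D2 and D1 and 4 other class II genes lay lower at D2 without passing. H2-DMb1 read 10.83 and 10.87 at D1 and 10.64 and 11.12 at D2, and its 2 groups overlapped, with a difference of 0.03 ± 0.36 and a 95% interval from -0.76 to 0.82. The D2 arrays of H2-DMa, H2-Ab1, H2-Eb1 and H2-Aa all lay below those of D1, by log2 differences of -1.20 for H2-DMa (adjusted p = 0.104 in limma), -1.02 for H2-Ab1 (0.087), -0.86 for H2-Eb1 (0.067) and -0.58 for H2-Aa (0.156). The 95% intervals of the first 3 lay below 0. Ciita, near background in all 4 arrays, differed by 0.45 (0.221). In limma 0 of 6 passed, where 33.2% of all probe sets passed. At an unadjusted p under 0.05 there were 3 of 6, against 42.9% of all probe sets. A fit of only these 4 arrays gave 3 passing genes, and the fit without D2-IL6 replicate 2 gave 1.

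Of the 14 other genes of the class II route, 5 rose with IL-6 at D2 and 0 fell, with 7 differences above and 7 below 0: Ctss by 3.90, Ifi30 by 3.80, the costimulatory gene Cd86 by 2.99, the cathepsin gene Ctsl by 2.35 and the ubiquitin ligase gene Marchf1 by 2.17. Cd86 and Marchf1 lay near background in both D2-Control arrays, so only differences of at least 0.66 and 0.64 were measured. The median of the 14 was 0.58. Ctss read 8.84 and 7.40 in D2-Control, the second near background, and 11.99 and 12.05 in D2-IL6. Of the 15 regulators, Spi1, the myeloid factor PU.1, rose by 4.77, from 9.87 and 8.13 to 13.99 and 13.55. The interferon gamma receptor gene Ifngr1 rose by 2.53 (at least 2.14). The IL-6 difference was larger at D2 than at D1 for 3 of the 14 pathway genes and 1 of the 15 regulators: Spi1 by 3.99, Ctss by 3.67, Cd86 by 2.91 and Ifi30 by 2.87 (adjusted p = 0.0175, 0.0132, 0.00482 and 0.0175 in limma). Rfx5, an X box factor near background in all 4 arrays, gave no measurable difference, and Nfya, Nfyb and Nfyc, the NF-Y subunits, differed by 0.13, -0.15 and -0.04, which did not pass. Of the 12 class I genes, 4 rose: the immunoproteasome genes Psmb8 by 2.60 (at least 1.73), Psmb9 by 1.91 (at least 1.66) and Psmb10 by 1.76 (at least 0.02), and the peptide transporter gene Tap1 by 1.51 (at least 0.98).

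Some marker lists of other blood cells moved with the class II genes in culture, and others did not. Of 14 monocyte and macrophage markers, 9 rose and 1 fell with IL-6 at D2, with a median of 3.58. Their log2 summed signal was 15.55 to 16.27 in the D1 arrays, 11.59 and 11.55 at D2 without IL-6, and 16.19 and 16.24 at D2 with it. Csf1r, the macrophage growth factor receptor, read 13.03 and 12.71 in D2-IL6 against 7.36 and 7.12 without IL-6. Of 11 neutrophil markers, 4 rose and 0 fell, with list means of 5.79 and 5.78 in D2-Control and 8.01 and 7.79 in D2-IL6. Of 10 progenitor markers, 5 rose and 0 fell with IL-6 at D2, and 8 fell from D1-Control to D2-Control. Over that step 9 of 14 monocyte and macrophage and 5 of 11 neutrophil markers also fell, where 23.5% of all probe sets did. The progenitor list means were 10.30 and 10.66 in D1-Control, 6.93 and 7.10 in D2-Control and 7.89 and 8.04 in D2-IL6. Of 12 dendritic cell markers and of 13 B cell markers, 0 passed in limma with IL-6 at D2, and 0 of each had an unadjusted p under 0.05 there. From D1-Control to D2-Control, 4 dendritic cell markers fell and 1 rose, and 2 B cell markers fell and 3 rose. Over that step 4 of 8 mast cell and basophil markers fell and 1 rose, and 2 of 6 eosinophil markers fell. With IL-6 at D2, 0 of either list passed. The dendritic cell gene Itgax and the B cell gene Pax5 lay near background in all 8 cultured arrays, and 1 or 2 of 13 B cell markers exceeded background per array. The part of these marker lists in the class II results was not tested. In such bulk samples, fewer cells of a type and less RNA per cell cannot be told apart.

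**Figure D2:**
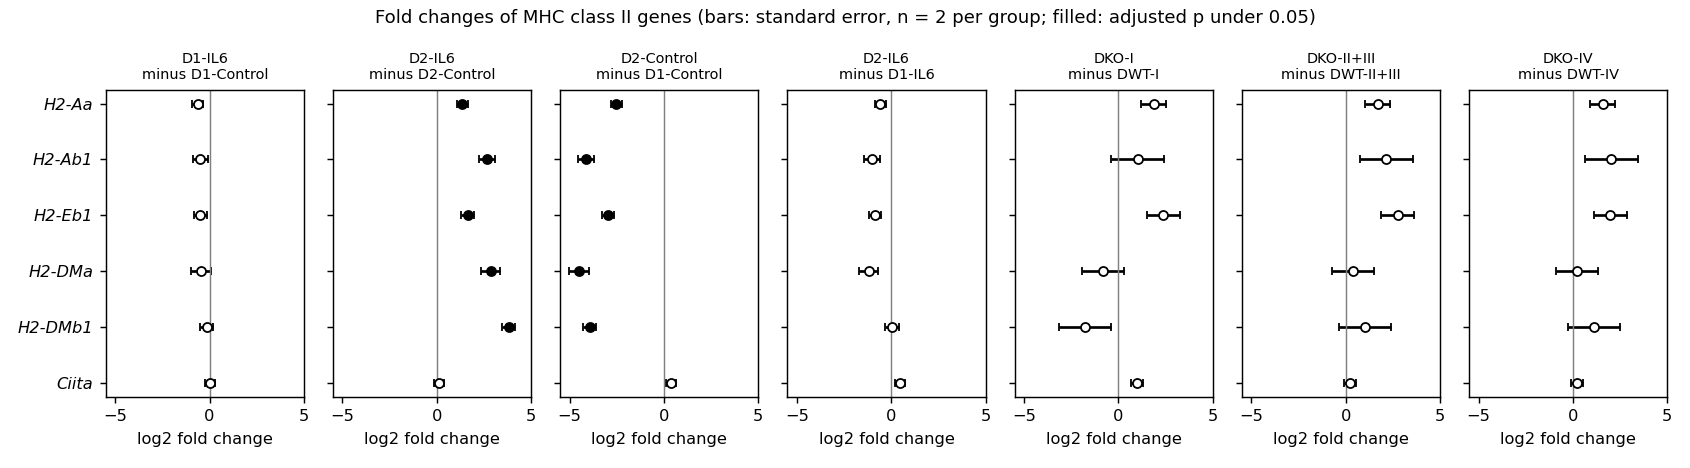
Log2 fold changes of the 6 class II genes in 4 culture comparisons and the 3 comparisons of DKO with DWT. Points are limma estimates, bars are standard errors with 2 arrays per group, and filled points have an adjusted p under 0.05. Filled points occur in the comparison of D2-IL6 with D2-Control and of D2-Control with D1-Control, and in none of the other panels.

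In vivo, the chain genes of I-A and I-E were bright in the DKO-II+III arrays. The neutrophil markers had a mean of 15.41 and 15.38 in these arrays, and the erythroid markers 12.30 and 13.09. Which cells gave the class II signal was not tested. H2-Eb1 read 14.47 and 14.85 in DKO-II+III and 12.15 and 11.66 in DWT-II+III. H2-Ab1 read 13.38 and 13.68 against 11.27 and 11.48, and H2-Aa read 13.21 and 12.81 against 11.23 and 11.37. The groups did not overlap for these 3 genes. The H2-M chain genes lay closer together: H2-DMb1 read 13.87 and 13.59 against 12.54 and 12.89, and H2-DMa read 13.13 and 12.44 against 11.98 and 12.80, with overlap.

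The differences at stage II+III were 2.76 ± 0.88 for H2-Eb1 (adjusted p = 0.27 in limma), 2.15 ± 1.40 for H2-Ab1 (0.743), 1.71 ± 0.66 for H2-Aa (0.425), 1.02 ± 1.38 for H2-DMb1 (0.929) and 0.39 ± 1.11 for H2-DMa (0.972). Ciita differed by 0.24 (0.929). In limma 0 of 6 passed, where 0.618% of all probe sets passed. At an unadjusted p under 0.05 there were 2 of 6, against 9.28% of all probe sets. The median was 1.36 over the class II genes and 0.01 over all named genes. The spread shared in this fit includes the DKO-I pair, which differed by 5.89 in H2-DMb1. Leaving out DKO-I replicate 2, which is in neither group, changed none of the differences, only that shared spread.

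At stage IV the same chain genes were again higher on average in DKO, with wider spread. H2-Eb1 read 13.19 and 10.95 in DKO-IV and 9.69 and 10.47 in DWT-IV, H2-Ab1 read 11.78 and 9.32 against 8.01 and 9.04, and H2-Aa read 12.27 and 10.66 against 10.23 and 9.58. DKO-IV replicate 1 was the higher DKO array for each, and replicate 2 lay just above the DWT arrays. The differences were 1.99 ± 0.88, 2.03 ± 1.40 and 1.57 ± 0.66, with adjusted p-values of 0.606, 0.791 and 0.592 in limma. H2-DMb1 differed by 1.12, H2-DMa by 0.23 and Ciita by 0.21. In all, 0 of 6 passed in limma, where 0.0460% of all probe sets passed. At an unadjusted p under 0.05 there were 2 of 6, against 8.11% of all probe sets.

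At stage I the DKO arrays went apart. H2-DMb1 read 14.14 in DKO-I replicate 1 and 8.25 in replicate 2, against 13.07 and 12.88 in DWT-I. H2-Ab1 read 14.34 and 8.73 against 10.64 and 10.41, and H2-DMa read 13.58 and 10.56 against 13.01 and 12.75. For these 3 genes the DKO arrays lay on either side of the DWT arrays. H2-Eb1, at 15.11 and 12.31 against 11.45 and 11.22, and H2-Aa, at 13.56 and 11.70 against 10.60 and 10.94, were higher in both DKO arrays.

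The stage I differences were 2.37 ± 0.88 for H2-Eb1 (adjusted p = 0.289 in limma) and 1.86 ± 0.66 for H2-Aa (0.28), and 1.01, -0.81 and -1.78 for H2-Ab1, H2-DMa and H2-DMb1. Ciita, near background in all but 1 of these 4 arrays, differed by 0.97 (at least 0.15, adjusted p = 0.261 in limma). In limma 0 of 6 passed, where 0.445% of all probe sets passed. The unadjusted p was under 0.05 for 3 of 6, against 15.5% of all probe sets. The H2-DMb1 difference was -4.73 without DKO-I replicate 1 and 1.16 without replicate 2. H2-Ab1 gave -1.80 and 3.81, and H2-DMa gave -2.32 and 0.69. The DKO difference did not pass as different between stages for any of the 6 genes: for all named probe sets 0 passed, with 942 at an unadjusted p under 0.05 for II+III against I and 662 for IV against II+III, and 0 of the 6 class II genes among them in either case. Since the DKO-I arrays went apart, the change of the DKO difference from stage I to II+III is not resolved.

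**Figure D3:**
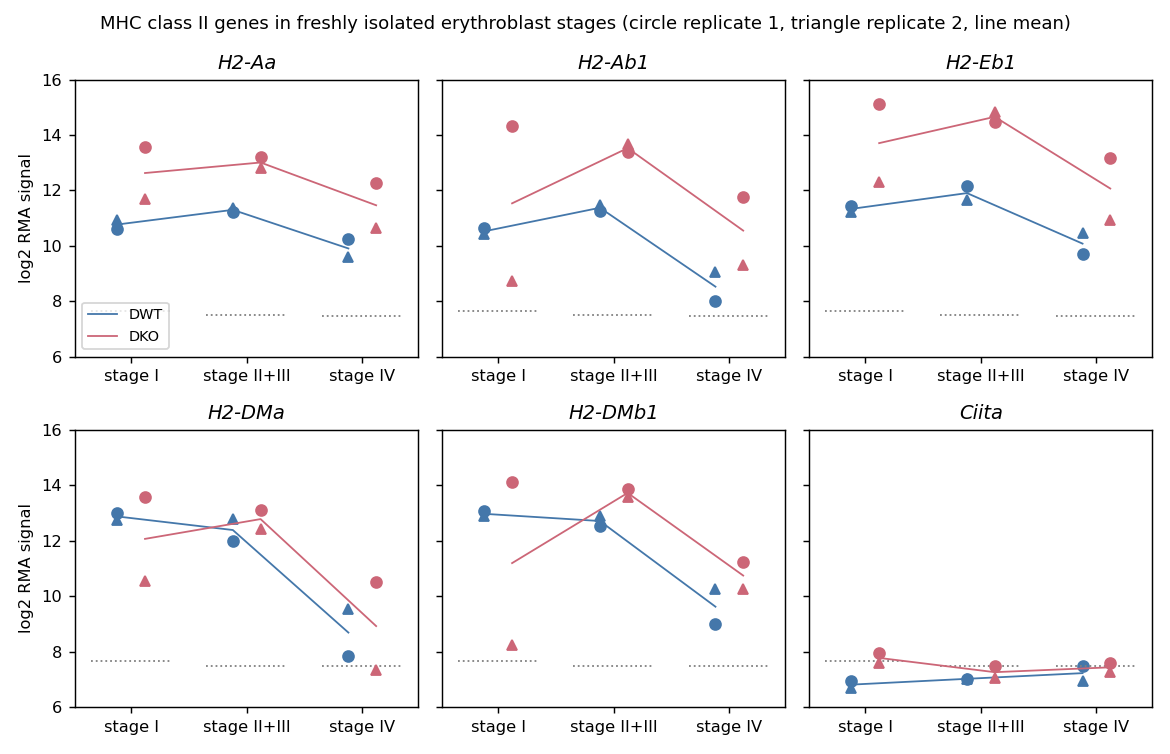
Log2 signal of the 6 class II genes at 3 erythroblast stages in DWT (blue) and DKO (red). Circles are replicate 1, triangles replicate 2, lines join group means and dotted lines are the mean background level of the stage's arrays. H2-Aa, H2-Ab1 and H2-Eb1 lie higher in both DKO-II+III arrays than in the DWT arrays, and the DKO-I arrays lie far apart.

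From stage I to II+III no class II gene passed. In DWT, H2-Ab1 read 10.64 and 10.41 and then 11.27 and 11.48, the largest difference of the 6 at 0.85 ± 1.40, with no overlap. H2-Eb1 differed by 0.56, H2-Aa by 0.53, Ciita by 0.22, H2-DMb1 by -0.26 and H2-DMa by -0.49. Here 0 of 6 passed in limma and 0 had an unadjusted p under 0.05, where 0.245% of all probe sets passed. In DKO the counts were likewise 0 and 0, where 0.327% passed, and the DKO-I arrays set the direction. H2-Ab1 differed by 2.00, H2-Eb1 by 0.95, H2-DMa by 0.72, H2-Aa by 0.38 and Ciita by -0.52, all overlapping apart from Ciita. H2-DMb1 differed by 2.54, by 5.48 without DKO-I replicate 1 and by -0.41 without replicate 2. The signs of H2-Aa, H2-Ab1, H2-Eb1 and H2-DMa turned likewise without replicate 2. Without replicate 1 the differences were 4.80 for H2-Ab1, 2.35 for H2-Eb1, 2.22 for H2-DMa and 1.32 for H2-Aa.

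From stage II+III to IV, 5 of the 6 genes were lower in both genotypes. In DWT, H2-DMa read 11.98 and 12.80 and then 7.84 and 9.53, and H2-DMb1 read 12.54 and 12.89 and then 8.98 and 10.26. H2-Ab1 read 11.27 and 11.48, then 8.01 and 9.04. H2-Eb1 read 12.15 and 11.66, then 9.69 and 10.47, and H2-Aa read 11.23 and 11.37, then 10.23 and 9.58. No stage IV array reached a stage II+III array for these 5 genes.

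The log2 differences in DWT were -3.70 ± 1.11 for H2-DMa (adjusted p = 0.0816 in limma), -3.09 for H2-DMb1, -2.85 for H2-Ab1, -1.82 for H2-Eb1 and -1.40 for H2-Aa. With the 12 in vivo arrays in the fit, 0 of 6 passed, where 5.16% of all probe sets passed, 3.57% of all being lower. The unadjusted p was under 0.05 for 2 of 6, against 21.7% of all probe sets. Ciita differed by 0.20. The male and female mice tie the DWT arrays across stages. With the mouse as a replicate block in a fit of the 6 DWT arrays, all 5 passed as lower, with adjusted p-values from limma of 0.000847 for H2-DMa, 0.000907 for H2-DMb1, 0.00134 for H2-Ab1, 0.00848 for H2-Eb1 and 0.021 for H2-Aa. A fit of only the compared arrays, with no mouse block, also gave 5, so the count does not hang on the block. The fits other than leave-outs passed 973 to 4283 of all probe sets for this step, against 1010 in the main fit. The number of calls thus varied with the fit over the whole array. The shares passing in the block fit and in the fit of the compared arrays are not given here. The median was -2.34 over the class II genes and 0.12 over all named genes.

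In DKO the step was -3.87 ± 1.11 for H2-DMa (adjusted p = 0.0604 in limma), -2.99 for H2-DMb1, -2.98 for H2-Ab1, -2.59 for H2-Eb1 and -1.54 for H2-Aa. Ciita differed by 0.17. In limma 0 of 6 passed, where 7.77% of all probe sets passed, 3.66% of all being lower. The unadjusted p was under 0.05 for 3 of 6, against 22.6% of all probe sets. Leaving out DKO-I replicate 2, which is in neither group, changed none of these differences, only the shared spread. The H2-DMa step was -5.45 without DKO-IV replicate 1. DKO-IV replicate 2 read 7.34 for H2-DMa, near background, and replicate 1 read 10.50.

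Several marker lists of other cells were lower at stage IV too. Of 14 monocyte and macrophage markers 6 fell in DWT and 4 in DKO, and the differences of all 14 were below 0 in both. Of 11 neutrophil markers 6 and 7 fell, of 10 progenitor markers 1 and 2, and of 12 dendritic cell markers 2 and 0. Over these steps 3.57% and 3.66% of all probe sets passed as lower. The B cell list was not lower in DKO, with 8 differences above and 5 below 0 and a median of 0.40. In DWT its median was -0.54, and 0 of 13 B cell markers passed in either genotype. The part of these markers in the class II differences was not tested. In DWT 3 of the 14 other pathway genes fell, with log2 fold changes of -2.45 for Ctss, -1.74 for Ifi30 and -1.66 for the H2-O beta-chain gene H2-Ob (or -1.02 from the background level). In DKO 4 fell: Ifi30 (-2.09), the costimulatory gene Cd80 (-1.89, or -0.98 from the background level), Ctss (-1.68) and Ctsl (-1.45, or -1.26). Marchf8, a ubiquitin ligase gene, rose by 4.09 in DKO. The log2 fold change of Spi1 was -3.80 in DWT and -2.32 in DKO, and both passed. At stage IV Spi1 was higher in DKO, at 14.35 and 14.74 against 11.27 and 12.23, a difference of 2.80 (adjusted p = 0.0444 in limma) and the only 1 of the 15 regulators to pass a comparison of the genotypes. Among the 14 other pathway genes and the 12 class I genes, 0 passed between genotypes at any stage in limma. Of the 14 pathway genes 8, 7 and 2 had an unadjusted p under 0.05 at stages I, II+III and IV, and of the 12 class I genes 1, 0 and 1, where 15.5%, 9.28% and 8.11% of all probe sets did.

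Centred on their own means over the 20 arrays, the chain genes and the H2-M genes took different courses in vivo. The mean of H2-Aa, H2-Ab1 and H2-Eb1 stood at -0.09 and -0.13 in DWT-I, where that of H2-DMa and H2-DMb1 stood at 2.24 and 2.02. In DKO-I replicate 1 both stood high, at 3.34 and 3.06, and in DKO-I replicate 2 they stood at -0.08 and -1.40. At stage II+III the chain genes stood at 0.56 and 0.51 in DWT and 2.70 and 2.79 in DKO, and the H2-M genes at 1.46 and 2.04 against 2.70 and 2.21. The chain mean minus the H2-M mean was thus -0.90 and -1.53 in DWT-II+III and 0.00 and 0.58 in DKO-II+III. At stage I it was -2.33 and -2.15 in DWT and 0.29 and 1.32 in DKO. These are descriptions of unequal change among the genes, with no test.

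Markers of other cells varied among the in vivo arrays. The monocyte and macrophage list had a mean of 10.96 and 11.36 in DWT-II+III and 11.93 and 12.77 in DKO-II+III, with 2 of 14 markers passing as higher in DKO, Ms4a6d and Cd14. Its log2 summed signal was 16.87 and 17.96 against 18.34 and 18.31. At stage IV its mean was 8.99 and 8.99 in DWT and 10.13 and 10.09 in DKO. The neutrophil list, with all 11 differences above 0 at both stages, had a mean of 11.30 and 12.99 in DWT-II+III and 15.41 and 15.38 in DKO-II+III. At stage IV its mean was 7.70 and 10.06 against 12.49 and 11.99. Its median difference was 3.10 at II+III, with 1 of 11 passing, and 3.44 at IV, with 0 passing, and 9 had an unadjusted p under 0.05 at each. The B cell list split the DKO arrays: 10 of 13 markers exceeded background in DKO-II+III replicate 1 and 10 in DKO-IV replicate 1, against 4 and 3 in the arrays numbered 2. Pax5 read 9.05 and 10.00 in these arrays numbered 1 and 5.54 and 5.40, near background, in those numbered 2. The dendritic cell gene Itgax ran the other way, at 8.37 in DKO-II+III replicate 1 and 12.51 in replicate 2, and lay near background in all 6 DWT arrays. The list of 12 dendritic cell markers did not follow it, with means of 7.67 and 7.54 in DKO-II+III and 7.67 and 7.64 in DWT-II+III, and 0 passed between genotypes at any stage (4 at an unadjusted p under 0.05 at II+III). Itgax was singled out after its values were seen. Each chain gene was within 0.40 of itself in the 2 DKO-II+III arrays, with H2-Aa at 13.21 and 12.81. In DKO-IV the chain genes were all higher in replicate 1. There H2-Eb1 read 13.19 and 10.95, H2-Ab1 11.78 and 9.32, and H2-Aa 12.27 and 10.66. Several lists split likewise: B cell (means of 9.65 and 6.98), progenitor (10.39 and 7.51) and T and innate lymphoid cell (10.48 and 7.97). The mast cell and basophil list (8.87 and 6.72) and the eosinophil list (8.82 and 7.10) did so too. The dendritic cell list did not, at 6.82 and 6.83. The erythroid list had a mean of 9.91 and 9.42 in DKO-I against 13.08 and 12.92 in DWT-I, and 8 of 10 markers passed as lower there. Between DKO-I and DWT-I, 1 of 6 eosinophil markers passed as lower, with a list median of -4.29. There 0 of 10 progenitor markers passed (median -2.57), and 2 of 9 T and innate lymphoid cell markers passed as higher (median 0.94). At that stage 0.445% of all probe sets passed. Of 8 mast cell and basophil markers 0 passed at any stage, with a median of -2.52 at II+III. The part of these marker lists in the class II values was not tested.

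**Figure D4:**
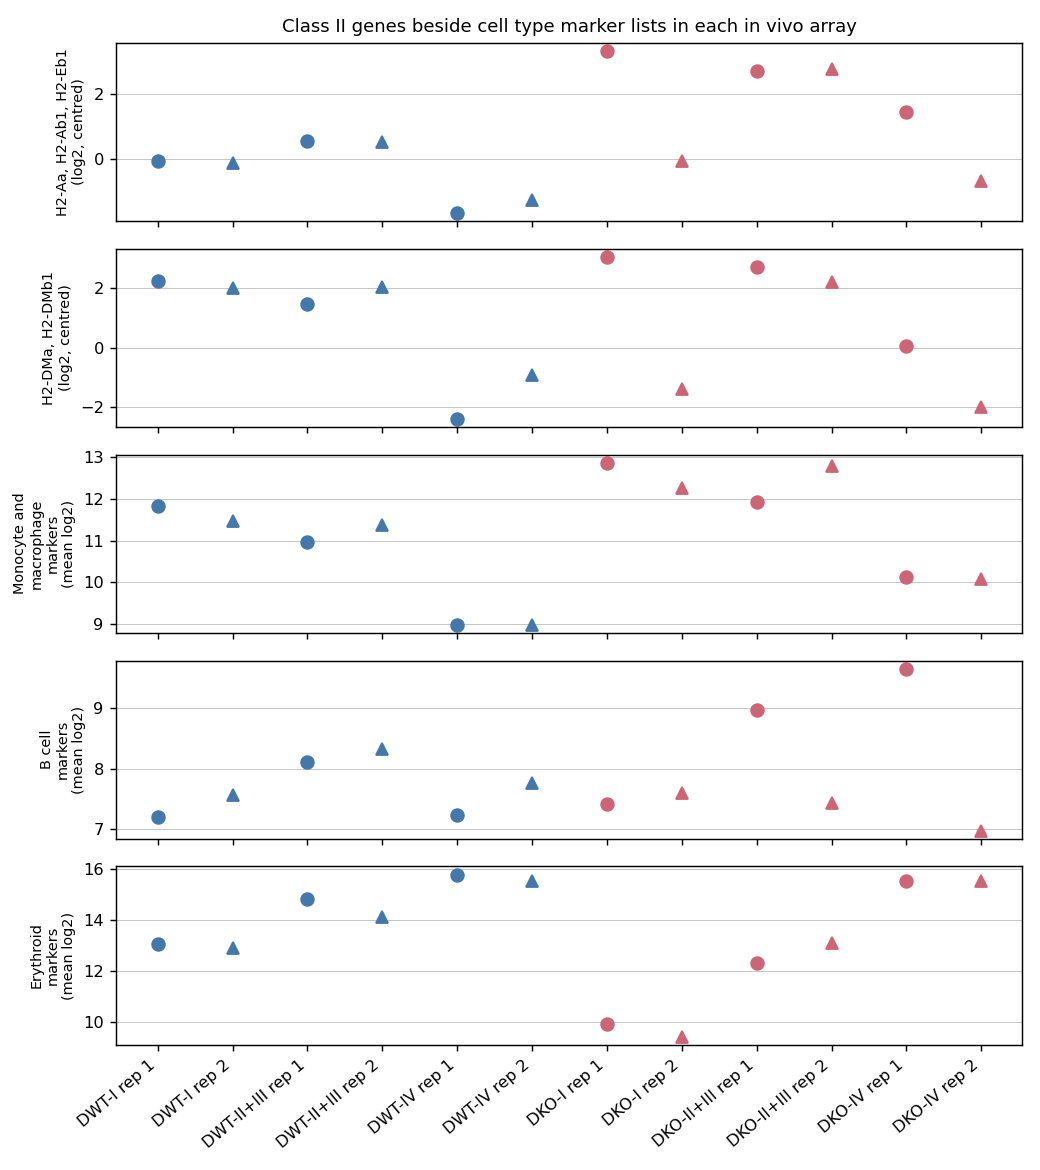
Each in vivo array (DWT blue, DKO red, circle replicate 1, triangle replicate 2) on 5 measures: the mean of 3 chain genes and of 2 H2-M genes, each gene centred on its 20-array mean, and the mean log2 signal of 3 marker lists. The B cell list separates the DKO-II+III and DKO-IV arrays numbered 1 from those numbered 2, and the erythroid list is lowest in DKO-I.

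Ranked by group mean over all 10 groups, D2-Control was lowest for all 5 bright genes, and its arrays did not overlap those of DWT-IV, the next group up. DKO-II+III ranked highest for H2-Aa (13.01 ± 0.28 SD, n = 2), H2-Ab1 (13.53 ± 0.21), H2-Eb1 (14.66 ± 0.26) and H2-DMb1 (13.73 ± 0.20), and DWT-I ranked highest for H2-DMa (12.88 ± 0.18). For H2-Aa, H2-Ab1, H2-Eb1 and H2-DMa the top group overlapped the next. The order ran from DKO-II+III through DKO-I, DKO-IV, DWT-II+III, D1-Control, DWT-I, D1-IL6, D2-IL6 and DWT-IV to D2-Control for both H2-Aa and H2-Eb1. In that order neighbours overlapped for both genes, apart from D1-IL6 over D2-IL6 and DWT-IV over D2-Control. For H2-DMb1 the D2-IL6 group, at 10.88, overlapped both D1-Control at 11.01 and D1-IL6 at 10.85. For Ciita the means ran from 6.80 in DWT-I to 7.77 in DKO-I, and 17 of its 20 values were near background, so its order is not resolved.

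Across the 20 arrays, which share group structure, the 2 chain genes H2-Eb1 and H2-Aa correlated at r = 0.97, H2-Ab1 and H2-Eb1 at 0.92, and the H2-M partners H2-DMa and H2-DMb1 at 0.90. H2-DMb1 and H2-Aa had r = 0.75, with 0.89 over the 8 cultured and 0.57 over the 12 in vivo arrays. Ciita correlated with the others at -0.14 to 0.33. Of 9045 genes above background in at least 4 arrays, those with the profile most like the class II mean were Itgal (r = 0.936), Laptm5 (0.927), Psmb8 (0.926), Ywhaz (0.920), B4galnt1 (0.918), Psmb9 (0.916), Lat2 (0.914), Selplg (0.914), Psmb10 (0.910) and Mov10 (0.907). All 3 immunoproteasome subunit genes were among these 10. Their r was 0.921 to 0.937 over the 8 cultured and 0.903 to 0.920 over the 12 in vivo arrays. Ranked within the in vivo arrays alone, only Psmb10 of the 3 was among the top 10. Within the cultured arrays alone, none of them was. H2-DMb1 and H2-DMb2 are near-identical neighbours, and how far their probe sets separate them was not tested.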

How the data were processed

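RNA from 20 arrays (10 groups of 2) was labelled from small amounts with a Pico kit, per the labels' protocols. The authors deposited log2 signals made with RMA in Affymetrix Expression Console, per the submitters' processing notes; versions and joint normalization are not given in the sources used here. RMA draws low signals together, so fold changes near background are compressed. No further normalization was applied. Linear models were fitted in R 4.3.3 with limma 3.58.1 (eBayes with trend), with the 8 cultured arrays and the 12 in vivo arrays in separate fits (4 and 6 residual degrees of freedom). Tests were 2-sided, Benjamini-Hochberg adjusted over 19572 probe sets, with a threshold of 0.05. Differences between time points or stages were interaction contrasts. Where 1 group was near background in both arrays, "at least" gives the difference from that level. After a leave-out, the lone array was taken to vary as other groups do.

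The measured class II genes are named in each comparison of 2 groups, and at most the 4 largest passing changes of each pathway list (Marchf1, Rfx5, the NF-Y subunit genes and the marker genes beyond this rule were named after their values were seen). Members and lists were chosen with earlier results of these data known. The DWT mice pair arrays by sex, a label; deviations of arrays from the same mouse correlated at 0.06 to 0.20. In simulated data with 200 changed genes, the cultured fit recovered 76% of log2 changes of 2 between D2-IL6 and D2-Control, and the in vivo fit 46% between DKO-II+III and DWT-II+III. Quantile normalization, centring, no trend, other sets of arrays, a filter on dim probe sets and leave-outs were tried.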

Additional observations from a re-analysis of the deposited data

Results flagged for a closer look

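For H2-DMb1 and H2-Ab1 the effect of IL-6 differed between the culture times D2 and D1 in a direct test of that difference. For H2-DMb1 the D2 effect exceeded the D1 effect by 3.98 on the log2 scale, with D2 and D1 effects of 3.81 and -0.16 (interaction contrast in limma, adjusted p = 0.0025). For H2-Ab1 it did so by 3.12, with effects of 2.64 and -0.48 (adjusted p = 0.0307). Both arrays with IL-6 lay above both controls at D2 for each gene.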

How the results depend on the processing

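The 5 falls from D1-Control to D2-Control passed in every alternative fit and leave-out run, and the members passing at D1 with IL-6, between DWT-I and DWT-II+III and between genotypes at stage IV stayed at 0. For IL-6 at D2 (5 genes), fitting all 20 arrays together gave 0 and the 4 compared arrays gave 3, with 2 to 4 over leave-outs. For D2-IL6 against D1-IL6 (0), centring gave 1, the compared arrays 3 and the dim filter 2, with 0 to 1 over leave-outs. For the difference of the IL-6 effects (2), quantile normalization and no trend gave 1 each, all 20 arrays 0 and the dim filter 5, with 1 to 3 over leave-outs. For DWT-IV against DWT-II+III (0), all 20 arrays gave 1, the compared arrays 5 and the mouse as a replicate block 5, with 0 to 3 over leave-outs. The block changed no other call. For DKO-IV against DKO-II+III (0), all 20 arrays gave 2 and the compared arrays and the dim filter 1 each, with 0 to 4 over leave-outs. Leave-outs gave 0 to 1 between genotypes at stage I and at stage II+III, 0 to 3 for DKO-II+III against DKO-I and 0 to 2 for the change of the DKO difference from stage I to II+III. Over leave-outs of the in vivo arrays the number of all probe sets passing also varied widely. Whether those leave-out counts are particular to the class II genes was not tested. The wider spread of the in vivo arrays enters the fit of all 20. Otherwise the cause was not tested.

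Under quantile normalization and centring the signs of the 5 bright genes held, apart from H2-DMb1 below. Signs turned in these cases. After centring, Ciita at D1 with IL-6 gave 0.00, and H2-DMb1 in D2-IL6 against D1-IL6 gave -0.06. Over leave-outs, Ciita ranged from -0.05 to 0.10 at D1 with IL-6, -0.08 to 0.29 at D2, -0.10 to 0.26 for their difference, -0.06 to 0.47 in DWT-IV against DWT-II+III, -0.04 to 0.39 in DKO-IV against DKO-II+III and -0.06 to 0.48 between genotypes at stage IV. H2-DMb1 in D2-IL6 against D1-IL6 ranged from -0.21 to 0.27, and H2-Ab1 at D1 with IL-6 from -1.03 to 0.06. In DKO-I against DWT-I the ranges were -1.80 to 3.81 for H2-Ab1, -2.32 to 0.69 for H2-DMa and -4.73 to 1.16 for H2-DMb1. In DKO-II+III against DKO-I they were -0.55 to 1.32 for H2-Aa, -0.81 to 4.80 for H2-Ab1, -0.79 to 2.22 for H2-DMa, -0.41 to 5.48 for H2-DMb1 and -0.45 to 2.35 for H2-Eb1. H2-DMa between genotypes ranged from -0.01 to 0.80 at stage II+III and -1.35 to 1.81 at stage IV.

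The fit without DKO-I replicate 2 for comparisons that do not use that array was chosen after seeing the data. The dim filter left Ciita out of the cultured fit. With the core ATTGG alone, 4 promoters matched in place of 3. With background correction already done and slides not given, no alternative to either was run. Signal over background limits Ciita in 17 of 20 arrays.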
